A study of Rattus norvegicus with 4 samples.

Results

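The nuclear genes of the respiratory chain were followed in rat liver after inhalational anesthesia with sevoflurane or desflurane. Members were chosen by gene symbol alone. They were the Nduf genes of complex I without the Ndufaf assembly factors, the Sdh genes of complex II, the Uqcr genes and Cyc1 of complex III, the Cox4 to Cox8 genes of complex IV, and the Atp5 genes of complex V. This gave 84 of the 16992 genes in the tables, with 37 genes in complex I, 4 in complex II, 9 in complex III, 17 in complex IV, and 17 in complex V.

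Complexes I to IV pass electrons from NADH and succinate to oxygen and pump protons across the inner mitochondrial membrane, except complex II, which pumps none. Complex V, the ATP synthase, uses the resulting proton gradient to make ATP. Hepatocytes are rich in mitochondria and use this ATP for glucose, urea, and lipid synthesis. Most subunits are encoded in the nucleus, and the remainder are encoded by the mitochondrial genome. Volatile anesthetics are known as inhibitors of complex I activity, a property of the protein that RNA levels do not measure.

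The livers (left lateral lobe) of 4 wild type male Wistar rats, bought at 6 weeks of age, were sequenced as 4 libraries of total RNA, 1 rat per condition. Each animal breathed either 4.5% sevoflurane or 6% desflurane from a nose cone in oxygen-enriched gas. They were sacrificed either after 6 h (sevoflurane 6 h, desflurane 6 h) or directly after consciousness was lost (sevoflurane control, desflurane control). All rats, controls included, had inhaled an agent and had been without food and water beforehand, and all were sacrificed at about the same time of day. The 6 h rats then spent 6 h under anesthesia, so their time without food was longer as described. The part of this in the results was not tested. With 1 library per condition no difference had a replicate check, so no p-values were calculated. The only measure of the spread between animals of one state was the difference between the controls, which had inhaled different agents.

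The libraries corresponded to between 4.47 and 5.40 Gb of aligned sequence, and between 9474 and 9695 genes had TPM values higher than 2. The TPM value is a level per transcript length, so that levels can be compared between genes. All 8 hepatocyte markers were above 2 TPM in every library, with a summed level of 134345 to 151263 TPM. All 8 markers of heart and skeletal muscle were at or under 2 TPM, with summed levels of 0.119 to 0.497 TPM, and Mb, Myh7, Myh6, and Actc1 were at 0. Of 6 pancreatic acinar markers, 6 were above 2 TPM in the sevoflurane control and 1 in each other library, with sums of 47.4 TPM and of 15.2 to 18.5 TPM. Leukocyte markers (4 of 5 present in the tables, 3 above 2 TPM in every library) summed to 432 TPM in the sevoflurane control, 148 TPM after 6 h of sevoflurane, 268 TPM in the desflurane control, and 311 TPM after 6 h of desflurane. Kupffer cell markers (3 of 3 above 2 TPM) summed to 344, 214, 266, and 321 TPM in that order, and erythroid markers (3 of 4 above 2 TPM) to 79.0, 55.2, 58.7, and 32.5 TPM. The part of these shifts in the results was not tested. In bulk liver, fewer cells of a type and less RNA per cell cannot be told apart.

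The promoter of the most abundant member of each complex with an entry in the RefSeq promoter table (GRCr8) is shown to give the sequence around the start of a gene that each complex is read from at a high level. Each sequence runs from 100 bases before to 30 bases after the start of the gene on the + strand, at chr11:76569078-76569207 for Ndufb4 (complex I), chr1:30764453-30764582 for Sdha (complex II), chr17:34186502-34186631 for Uqcrfs1 (complex III), chr19:65630283-65630412 for Cox4i1 (complex IV), and chr7:1099958-1100087 for Atp5f1b (complex V). Capitals mark the letters of NRF1 (GCGCA and GCGC with 1 base of any kind between them) in Ndufb4 and Sdha and of GABPA (CCGGAAG, here on the opposite strand) in Cox4i1.
Ndufb4: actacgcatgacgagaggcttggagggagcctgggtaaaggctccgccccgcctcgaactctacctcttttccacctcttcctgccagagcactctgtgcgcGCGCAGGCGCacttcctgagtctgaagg
Sdha: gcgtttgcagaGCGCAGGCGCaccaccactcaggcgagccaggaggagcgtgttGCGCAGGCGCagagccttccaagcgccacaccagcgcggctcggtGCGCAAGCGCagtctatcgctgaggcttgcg
Uqcrfs1: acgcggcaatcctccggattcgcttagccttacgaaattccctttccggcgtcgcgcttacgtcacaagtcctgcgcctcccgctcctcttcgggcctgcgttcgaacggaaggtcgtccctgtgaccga
Cox4i1: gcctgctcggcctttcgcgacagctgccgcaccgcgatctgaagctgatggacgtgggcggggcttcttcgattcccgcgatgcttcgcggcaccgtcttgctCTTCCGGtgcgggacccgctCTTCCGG
Atp5f1b: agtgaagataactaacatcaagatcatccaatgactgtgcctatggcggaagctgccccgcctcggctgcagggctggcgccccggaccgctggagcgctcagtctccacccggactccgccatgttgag

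Sdha held the NRF1 letters at 3 places, Cox4i1 the GABPA letters at 2 places, and Ndufb4 the NRF1 letters at 1 place. No searched motif lay in the printed stretch of Uqcrfs1 or Atp5f1b. NRF1 and GABPA are transcription factors known for binding promoters of respiratory chain genes. Over the longer windows of the table, from 250 bases before to 50 bases after the start, 72 of the 84 members had a promoter. Letters were searched on both strands, and no searched motif contains another. NRF1 letters were in 14 member promoters (19.4%), compared with 11.1% of 7530 promoters of genes above 2 TPM in all libraries and 4.71% of all 27457 promoters. GABPA letters were in 21 (29.2%), compared with 20.03% and 9.22%. YY1 letters (AAGATGGC) were in 15 (20.8%), compared with 6.28% and 3.44%. ERR letters (TCAAGGTCA), those of the estrogen-related receptors, were in 2 (2.78%), Atp5mc3 and Sdhd, compared with 0.173% and 0.412%. Together, 41 of the 72 member promoters (56.9%) held NRF1, GABPA, or YY1 letters, compared with 32.2% of promoters of genes above 2 TPM. A match describes letters and shows no binding.

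Of the 84 members, 76 had TPM values higher than 2 in all 4 libraries, and 75 of these were higher than 20 in all. Together the members amounted to 9726 TPM in the sevoflurane control, 10188 TPM after 6 h of sevoflurane, 9279 TPM in the desflurane control, and 10056 TPM after 6 h of desflurane. These sums were 1.23%, 1.27%, 1.19%, and 1.24% of the TPM of annotated genes. Both 6 h libraries were above both controls in this sum, but with median-of-ratios scaling, which sets the typical gene equal between libraries, the sums were 9945, 10057, 9636, and 9563, and desflurane 6 h was below both controls. Orders of the libraries given for single genes are those of the TPM values.

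The 8 members at or under 2 TPM in at least 1 library were Cox4i2, Cox6a2, Cox6b2, Cox6c-ps1, Cox8b, Cox8c, Ndufa4l2, and Ndufs6. Most of them are isoforms known from other tissues. Cox4i2, the lung form of subunit 4, had TPM values of 0.671, 0.170, 0.229, and 0.795 in the order sevoflurane control, sevoflurane 6 h, desflurane control, and desflurane 6 h. The common form Cox4i1 had 316, 341, 301, and 318 TPM in the same order. Cox6a2, the heart and muscle form, was listed at 0 in both 6 h libraries and at 0.237 and 0.227 TPM in the controls, whereas Cox6a1 was between 261 and 293 TPM. Cox8b and the testis form Cox8c did not exceed 0.0871 TPM in any library, while Cox8a was between 261 and 319 TPM. In each of these pairs the form known from liver was the abundant one, and the muscle markers given above were near 0 in the same libraries. Cox6c-ps1, a pseudogene, was at 0 in all 4 libraries. Ndufs6, an accessory subunit of complex I, had a row at chr2:26471173-26471587 (rn6) with 0.555, 0.238, 0, and 0.684 TPM in the same order. This was far below the other Ndufs genes, which were above 20 TPM in all libraries. The row is shorter than those of the other Ndufs genes, and whether it holds the whole gene was not tested. The level is therefore that of this row and may not be that of the gene.

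**Figure D1:**
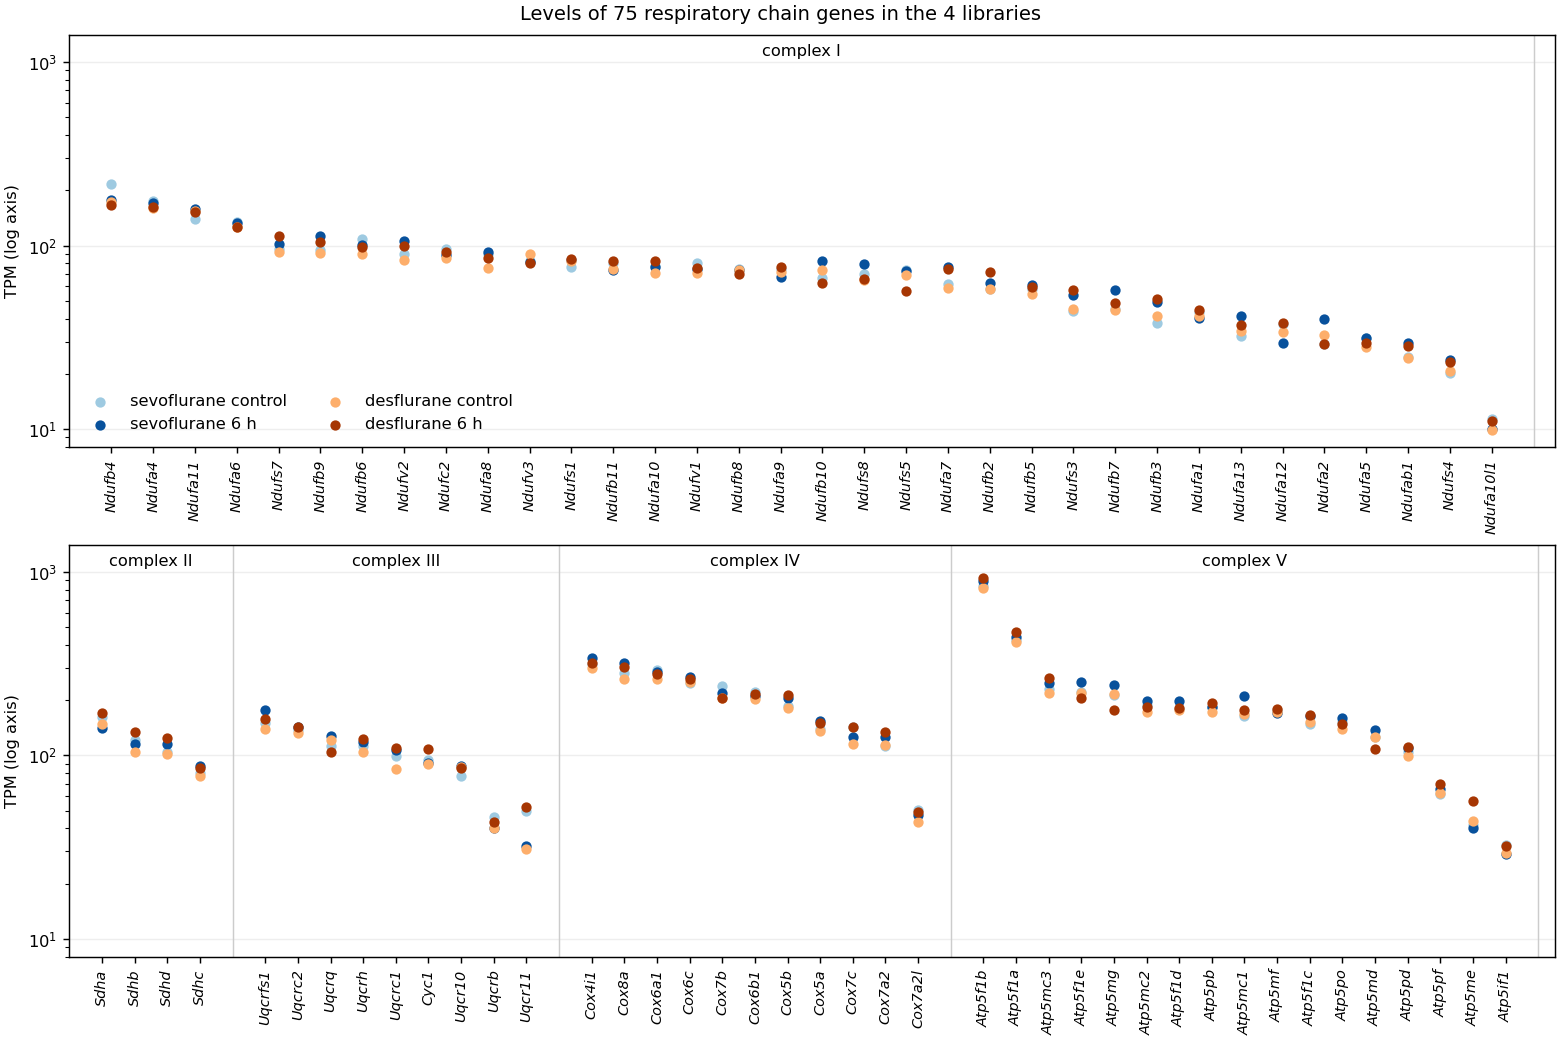
TPM value (log axis) of 75 of the 76 respiratory chain genes above 2 TPM in all libraries, with 1 point per library and genes ordered by mean level within complex I (upper panel) and complexes II to V (lower panel). The 4 points of a gene lie close together, with a median ratio of 1.17 between the highest and the lowest library, and Uqcr11 has the widest range (1.69).

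Levels differed far more between members than between libraries. The highest member was Atp5f1b, the catalytic β subunit of ATP synthase (chr7:2504708-2511748, rn6), with 833 TPM in the sevoflurane control, 892 TPM after 6 h of sevoflurane, 821 TPM in the desflurane control, and 931 TPM after 6 h of desflurane. Both 6 h values were above both controls. The lowest of the 76 was Ndufa10l1, a single-locus relative of Ndufa10, between 9.87 and 11.3 TPM. The order of the 76 members was nearly the same in all libraries, with Spearman's rho of 0.985 to 0.991 for the 6 pairs of libraries, as a description of genes that share each library. The median ratio of the highest to the lowest library was 1.17 for the members, compared with 1.34 for all 9136 genes above 2 TPM in all libraries. In 57 of the 76 members (75%) the highest library was no more than 25% above the lowest, compared with 34.0% of all genes above 2 TPM. As low genes are noisier, the members above 20 TPM were set beside other genes above 20 TPM, and 74.7% of 75 members stayed within this range, compared with 46.6% of 3258 genes. Only Uqcr11 exceeded 1.5-fold among the 76 members.

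Complex I, NADH dehydrogenase, had a summed level of 2666 TPM in the sevoflurane control, 2763 TPM after 6 h of sevoflurane, 2540 TPM in the desflurane control, and 2691 TPM after 6 h of desflurane. Its 3 most abundant genes by mean level were Ndufb4, Ndufa4, and Ndufa11. Ndufb4, an accessory subunit of the membrane arm, had 216, 177, 173, and 167 TPM in the same order, with the sevoflurane control above the other libraries. Ndufa4, whose product is now counted with complex IV, had 175, 171, 160, and 162 TPM, and its relative Ndufa4l2 did not exceed 0.255 TPM. Ndufa11, an accessory subunit of the membrane arm, had 139, 158, 155, and 152 TPM.

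The 7 core subunits of complex I encoded in the nucleus carry the flavin, the iron-sulfur clusters, and the quinone site. Their median level was 80.1, 83.1, 82.6, and 84.2 TPM in the order above, compared with 70.2, 72.8, 70.1, and 70.6 TPM for the other 28 genes of complex I above 2 TPM. Ndufs3, a core subunit of the matrix arm, had 44.3 TPM in the sevoflurane control, 54.1 TPM after 6 h of sevoflurane, 45.4 TPM in the desflurane control, and 57.5 TPM after 6 h of desflurane. Both 6 h values of Ndufs3 were therefore above both controls.

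Complex II, succinate dehydrogenase, had a summed level of 469, 459, 431, and 513 TPM in the same order. Sdha, the flavoprotein that oxidizes succinate, had 163 TPM in the sevoflurane control, 142 TPM after 6 h of sevoflurane, 149 TPM in the desflurane control, and 170 TPM after 6 h of desflurane. It was thus below both controls with sevoflurane and above both with desflurane. Sdhb, the iron-sulfur subunit, had 122, 115, 104, and 134 TPM, and the sevoflurane value lay between the controls. Sdhc, a membrane anchor, had 80.4, 87.1, 76.8, and 85.4 TPM, and Sdhd, the other anchor, had 104, 115, 102, and 124 TPM. For both anchors the 6 h values were above both controls. The ratio of Sdha to Sdhc was 2.02, 1.63, 1.94, and 1.99.

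Complex III, the cytochrome bc1 complex, had a summed level of 880, 923, 828, and 926 TPM in the same order. Uqcrfs1, the Rieske iron-sulfur protein, had 150, 176, 139, and 158 TPM, and both 6 h values were above both controls. Cyc1, cytochrome c1, had 94.95, 90.5, 90.1, and 108 TPM, which gave ratios of Uqcrfs1 to Cyc1 of 1.58, 1.94, 1.54, and 1.46. The core proteins Uqcrc2 and Uqcrc1 had 137, 143, 132, and 142 TPM and 99.6, 107, 84.8, and 109 TPM, respectively. Uqcrh, the hinge protein, had 113, 118, 104, and 122 TPM. In these 3 genes both 6 h libraries were above both controls. Uqcrq, a small subunit, had 113, 128, 121, and 105 TPM, with sevoflurane above and desflurane below both controls.

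Complex IV, cytochrome c oxidase, had a summed level of 2230, 2300, 2075, and 2270 TPM in the same order. Cox4i1, Cox8a, and Cox6a1 were its most abundant members. Cox8a, a small membrane subunit, had 281, 319, 261, and 303 TPM, with both 6 h libraries above both controls, and Cox6a1 had 293, 285, 261, and 277 TPM, with both 6 h libraries between the controls. Cox6b1, the form of subunit 6b used outside testis, had 222, 210, 202, and 217 TPM. Cox7a2, the liver form of subunit 7a, had 112, 126, 115, and 133 TPM, and Cox7a2l, which takes part in supercomplexes, had 50.7, 47.1, 43.2, and 49.4 TPM.

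Complex V had the highest summed level, 3481 TPM in the sevoflurane control, 3744 TPM after 6 h of sevoflurane, 3405 TPM in the desflurane control, and 3655 TPM after 6 h of desflurane. The catalytic head is built from Atp5f1a (α) and Atp5f1b (β), and Atp5f1c (γ) belongs to the central stalk. Atp5f1a had 424, 443, 416, and 469 TPM, and Atp5f1c had 149, 163, 152, and 167 TPM. The α and β subunits are present in equal number in the enzyme, and the ratio of Atp5f1b to Atp5f1a stayed between 1.96 and 2.01. The ratio of Atp5f1b to Atp5f1c was 5.41 to 5.61. The ring of subunit c is encoded by Atp5mc1, Atp5mc2, and Atp5mc3, which differ in their import sequence and yield the same mature protein. Atp5mc1 had 163, 210, 169, and 177 TPM, Atp5mc2 had 189, 199, 172, and 183 TPM, and Atp5mc3 had 231, 247, 218, and 264 TPM. Their sum relative to Atp5f1c was 3.92, 4.02, 3.69, and 3.74. Atp5if1, which inhibits ATP hydrolysis by the enzyme, had 32.5, 28.9, 29.4, and 32.3 TPM, the lowest level of the complex.

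**Figure D2:**
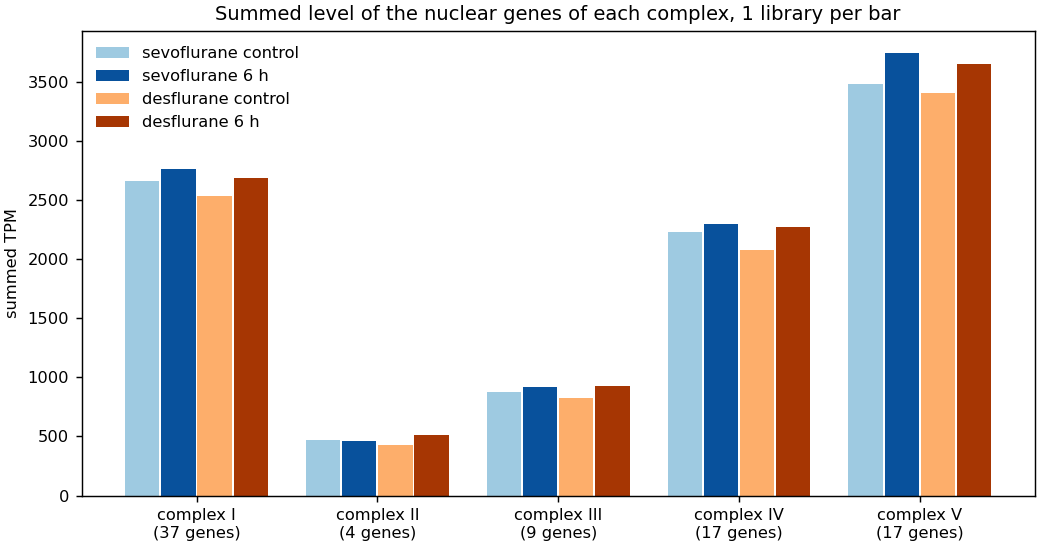
Summed TPM of the nuclear genes of each complex, with 1 bar per library. The sevoflurane control was above the desflurane control in all 5 complexes, and complex II after 6 h of sevoflurane (459 TPM) was the only sum of a 6 h library below a control of the same agent (469 TPM).

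Sevoflurane for 6 h was compared with its own control and then with the other control to ask which members stood apart from both. Against its own control, 47 of the 76 members (61.8%) were higher and 29 lower, compared with 57.1% of all genes higher. The median change of the members on the log2(TPM + 1) scale was 0.08, compared with 0.05 for all 9136 genes above 2 TPM. The median was 0.07 in complex I, 0.01 in complex II, 0.06 in complex III, 0.11 in complex IV, and 0.08 in complex V. Summed levels were 1.04, 0.978, 1.05, 1.03, and 1.08 times the control in complexes I to V, respectively. With median-of-ratios scaling, the log2 change of the sums was 0.00, -0.08, 0.02, -0.01, and 0.05, so that the direction of complex IV turned and those of complexes I, II, III, and V did not. Against the desflurane control, 66 of the 76 members (86.8%) were higher, compared with 59.4% of all genes, and the medians were 0.12 for the members and 0.07 for all genes. The 2 comparisons share the 6 h library.

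Members changed little, and fewer of them passed each fold limit than genes in general. Nearly all members were above 20 TPM, whereas the shares of genes past a limit, here and below, include low genes. These shares were not matched for level, so the part of level in the gap was not tested. Past 2-fold, with a TPM value higher than 2 in the higher state, was 1 of 77 members tested against the own control, compared with 5.54% of 9754 genes, where genes tested are those above 2 TPM in either library compared. This was Cox6b2, the testis form of subunit 6b (chr1:72661211-72662436, rn6), with 0.446 TPM in the sevoflurane control, 2.1 TPM after 6 h of sevoflurane, 0.228 TPM in the desflurane control, and 0.727 TPM after 6 h of desflurane. The sevoflurane library was 4.71-fold above its own control. Its average coverage did not exceed 3.55 in any library. The gene was not past the rule in FPKM values, but these are lower than TPM values and the limit of 2 was kept. That outcome depends on the level and does not bear on the fold change. It was also the 1 of 77 members past 2-fold against the other control, compared with 5.12% of genes.

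As most members stayed far below 2-fold, a limit of 25% was also applied, by which the higher of the 2 values exceeded the lower by more than 25% and was above 2 TPM. Past this limit and higher than the own control were 6 of 77 members (7.79%), compared with 20.8% of genes. These were Cox6b2, Atp5mc1, and the complex I genes Ndufa2, Ndufa13, Ndufb3, and Ndufb7. Ndufa2, an accessory subunit of the matrix arm, had 29.0, 39.8, 32.7, and 29.3 TPM in the order sevoflurane control, sevoflurane 6 h, desflurane control, and desflurane 6 h, so that the sevoflurane library stood above the other libraries. The change was 0.44 on the log2 scale against the own control and 0.28 against the other. Ndufb3 had 37.9, 49.5, 41.5, and 51.1 TPM, with both 6 h libraries above both controls. Atp5mc1 changed by 0.36 and Ndufb3 by 0.38 against the own control. Ndufa13, which is also known as a regulator of cell death, had 32.1, 41.3, 34.1, and 36.9 TPM, and Ndufb7 had 45.2, 57.3, 44.4, and 48.9 TPM.

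Past the 25% limit and lower were 2 of 77 members, compared with 15.9% of genes. Uqcr11, a small subunit of complex III at chr7:12171185-12175837 (rn6), had 49.9 TPM in the sevoflurane control and 32.2 TPM after 6 h of sevoflurane, a change of -0.62. The desflurane control was at 31.0 TPM, so that the 6 h library was not lower than the other control (0.06). Ndufa12, an accessory subunit of complex I, had 37.1, 29.4, 34.0, and 38.0 TPM, with sevoflurane below the other libraries. Ndufb4 changed by -0.28 and Sdha by -0.20, the lowest change in complex II. Against the desflurane control, 6 of 77 members were past the limit and higher, compared with 22.1% of genes, and 0 of 77 were lower, compared with 15.6%. The 6 were Cox6b2, Ndufa7, Ndufb7, Ndufv2, Uqcrc1, and Uqcrfs1, of which Cox6b2 and Ndufb7 were also past the limit against the own control. With median-of-ratios scaling, 3 members were past the limit and higher than the own control, compared with 16.9% of genes, and 3 were lower, compared with 18.7%.

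Desflurane for 6 h was compared in the same way. Against its own control, 63 of the 76 members (82.9%) were higher and 13 lower, compared with 67.0% of all genes higher, with a median of 0.13. All genes had a median of 0.11 in this comparison, and the members exceeded them by 0.02. The medians were 0.11 in complex I, 0.24 in complex II, 0.19 in complex III, 0.14 in complex IV, and 0.13 in complex V. Summed levels were 1.06, 1.19, 1.12, 1.09, and 1.07 times the control in complexes I to V, but with median-of-ratios scaling the sums of complex I (log2 change -0.04) and complex V (-0.02) were lower than the control and those of complexes II to IV were higher by 0.12, 0.04, and 0.00. With that scaling 40 of the 76 members were higher, with a median of 0.01. Against the sevoflurane control, 50 of 76 members (65.8%) were higher, compared with 64.2% of all genes, with a median of 0.06 for the members and 0.09 for all genes.

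In the annotated rows no member was past 2-fold with desflurane against either control, 0 of 76 in each case, compared with 4.27% of genes against the own control and 4.42% against the other. Past the 25% limit and higher than the own control were 6 of 76 members (7.89%), compared with 26.4% of genes, and 0 of 76 were lower, compared with 10%. The 6 were Uqcr11, Uqcrc1, Sdhb, Atp5me, Ndufs3, and Ndufa7. Uqcr11 had 31.0 TPM in the desflurane control and 52.3 TPM after 6 h of desflurane, a change of 0.74, but it was close to the 49.9 TPM of the sevoflurane control (0.07). Sdhb and Uqcrc1 each changed by 0.36 against the own control, and by 0.14 and 0.13 against the other. Atp5me, a small membrane subunit of ATP synthase, had 41.7, 40.3, 44.2, and 56.2 TPM in the order sevoflurane control, sevoflurane 6 h, desflurane control, and desflurane 6 h. The desflurane library was thus above the other libraries in this gene.

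The lowest changes with desflurane were those of Ndufs5 (-0.28), Atp5mg (-0.28), and Ndufb10 (-0.23) against the own control. Ndufs5, an accessory subunit of complex I, had 73.6, 72.3, 69.3, and 56.7 TPM, and Atp5mg, a membrane subunit of ATP synthase, had 214, 242, 215, and 177 TPM. Ndufb10 had 66.8, 82.1, 73.4, and 62.4 TPM. In all 3 genes the desflurane library was the lowest and the sevoflurane library was higher by up to 1.37-fold. Against the sevoflurane control, 3 of 76 members (Atp5me, Ndufb3, and Ndufs3) were past the limit and higher, compared with 25.1% of genes. The 2 of 76 that were lower, compared with 10.7%, were Ndufb4 (-0.37) and Ndufs5 (-0.37). With median-of-ratios scaling, 1 member, Uqcr11, was past the limit and higher than the own control, compared with 16.6% of genes, and 5 were lower, compared with 16.2%.

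**Figure D3:**
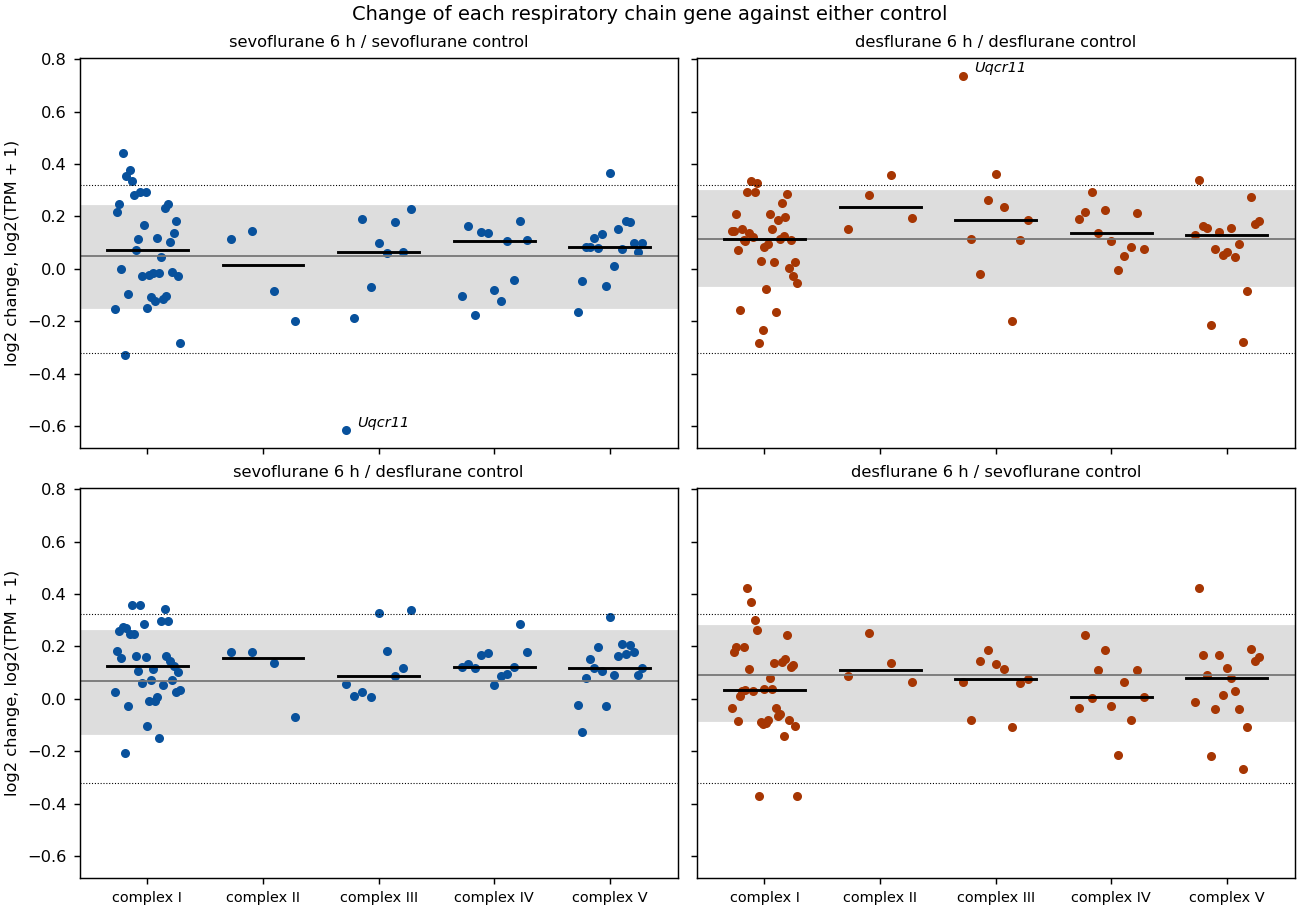
Change of each of the 76 members on the log2(TPM + 1) scale against the own control (upper panels) and the other control (lower panels), by complex, with 1 point per gene and the median of a complex as a black bar. The grey band spans the middle 50% of all 9136 genes around their median (grey line), dotted lines mark the 25% limit, and most members lie inside the band, with Uqcr11 at -0.62 and 0.74 farthest from it against the own controls.

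**Figure D4:**
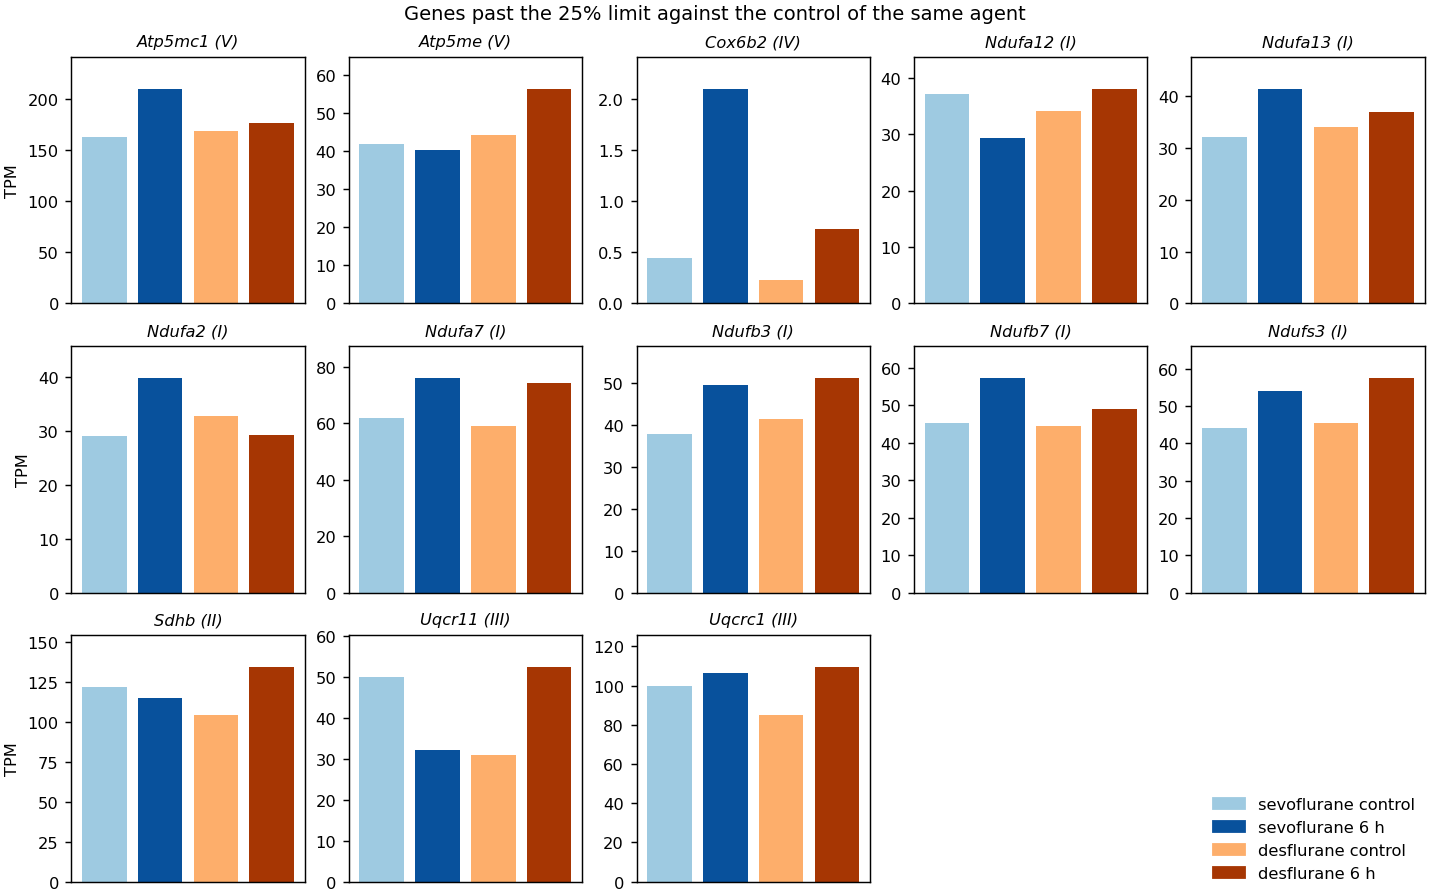
TPM value in each of the 4 libraries for the 13 members past the 25% limit against the control of the same agent, with 1 bar per library and the complex in parentheses. Uqcr11 is high in the sevoflurane control (49.9 TPM) and desflurane 6 h (52.3 TPM) and low in the other libraries, and Cox6b2 does not exceed 2.1 TPM.

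Because each state had 1 rat per agent, members were also counted by whether a 6 h library lay outside the pair of controls. With sevoflurane, 47 of 76 members were above both controls (61.8%), compared with 47.4% of 9136 genes, and 10 were below both (13.2%), compared with 31%. With desflurane, 47 of 76 were above both controls (61.8%), compared with 54.4%, and 10 were below both, compared with 23.1%. Both 6 h libraries were above both controls in 35 of 76 members (46.1%), compared with 34.4% of genes, and below both in 2 of 76 (2.63%), compared with 13%. Other scalings move all genes as well as the members, but not by the same amount. With median-of-ratios scaling and in FPKM values, the share of members above both controls was below that of all genes with desflurane. Rescaled to the annotated genes, it stayed slightly above with desflurane, at 37 of 76 members compared with 47.2% of 9411 genes. With sevoflurane the share stayed above in each of these settings. With median-of-ratios scaling and desflurane, 25 of 76 members were above both controls, compared with 37.4% of 9138 genes, and 30 of 76 below, compared with 38.4%. With sevoflurane these counts were 42 of 76, compared with 39.3%, and 19 of 76, compared with 38.6%. In FPKM values with desflurane, 5 of 76 members were above both controls, compared with 25.1% of 7074 genes, and 23 below, compared with 40.4%. With sevoflurane, 45 were above, compared with 48.6%, and 3 below, compared with 21.6%.

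The desflurane control was the lowest library for 43 of the 76 members and the highest for 1, compared with 33.1% and 14.6% of all genes. The controls differed from each other by a median of -0.07 (desflurane control relative to sevoflurane control), compared with -0.03 for all genes, and 56 of the 76 members were lower in the desflurane control. This difference between controls was about as large as the median change with sevoflurane against its own control (0.08). The 6 h libraries differed from each other by a median of -0.02 in the members (desflurane relative to sevoflurane), compared with 0.05 in all genes. The members varied less than genes in general, with a middle 50% of changes spanning 0.24 with sevoflurane and 0.16 with desflurane against the own controls, compared with 0.39 and 0.36 for all genes. Above 20 TPM in all libraries, these spans were 0.23 and 0.16 for 75 members, compared with 0.35 and 0.33 for 3258 genes.

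The other genes of mitochondrial energy metabolism were taken from lists of textbook members. Assembly factors of the chain (44 genes) had medians of 0.20 with sevoflurane and 0.17 with desflurane against the own controls. Past 2-fold with sevoflurane was 1 of 44, Cox11, a copper chaperone of complex IV, compared with 5.54% of all genes. With desflurane 0 of 44 were past 2-fold, compared with 4.27%. Cox11 had 4.08, 9.09, 4.99, and 5.97 TPM. Lrpprc, which stabilizes mitochondrial mRNAs, had 56.6, 73.5, 56.6, and 88.5 TPM, with both 6 h libraries above both controls. Electron carriers and enzymes of ubiquinone synthesis (18 genes) had medians of 0.09 and 0.19. Past 2-fold were 2 of 18 with sevoflurane, compared with 5.54% of all genes, and 1 of 18 with desflurane, compared with 4.27%. Coq10b, a ubiquinone-binding protein, had 16.3, 41.4, 15.5, and 19.4 TPM, and the sevoflurane library was 2.55-fold above its control. Coq7, a hydroxylase of ubiquinone synthesis, had 2.78, 5.98, 3.24, and 6.38 TPM, and Gpd2, the mitochondrial glycerol phosphate dehydrogenase, had 11.9, 12.8, 7.72, and 16 TPM. The most abundant genes of this list, Etfdh and Etfa, which feed electrons from fatty acid oxidation into ubiquinone, were less than 25% above either control in both 6 h libraries.

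Enzymes of the TCA cycle and pyruvate dehydrogenase (18 genes) had medians of 0.23 with sevoflurane and 0.18 with desflurane, and 17 of 18 were higher in each comparison with the own control, compared with 57.1% and 67.0% of all genes. Pdhb, a subunit of pyruvate dehydrogenase, had 63.2, 130, 63.7, and 120 TPM, and both 6 h libraries were above both controls by 1.89-fold or more. Mdh2 and Suclg2, the most abundant of the list, were above the own controls by 1.18-fold or less. Dlat, another subunit of pyruvate dehydrogenase, had 15.1, 37.4, 21.6, and 24.7 TPM. Past 2-fold with sevoflurane were 3 of the 18 genes, compared with 5.54% of all genes, and with desflurane 0 of 18, compared with 4.27%.

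Regulators of mitochondrial biogenesis (18 genes, 17 above 2 TPM in all libraries) had medians of 0.17 with sevoflurane and 0.36 with desflurane against the own controls. Against the other control the medians were 0.35 and 0.27, respectively. Between the 6 h libraries the median was -0.001 (desflurane relative to sevoflurane), with 8 of the 17 higher. Past 2-fold with desflurane against the own control were 2 of the 18 regulators, compared with 4.27% of all genes. Ppargc1a, the coactivator PGC-1α, had 4.23 TPM in the sevoflurane control, 5.08 TPM after 6 h of sevoflurane, 2.90 TPM in the desflurane control, and 13.5 TPM after 6 h of desflurane. The desflurane library was 4.64-fold above its own control and 3.18-fold above the other. Ppargc1b, its relative, had 3.71, 4.06, 3.59, and 7.82 TPM. Ppara, a nuclear receptor of fatty acid oxidation, had 70.7, 70.7, 53.4, and 92.8 TPM.

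The adenine nucleotide, phosphate, and proton carriers (11 genes, 7 above 2 TPM) had medians of 0.11 and 0.17, and their most abundant genes were Slc25a5, an ATP/ADP carrier, with 264, 285, 246, and 277 TPM, and Slc25a3, the phosphate carrier, with 165, 198, 154, and 188 TPM. The mitochondrial import machinery (26 genes) had medians of 0.27 and 0.20. Past 2-fold with sevoflurane was 1 of 26, Timm17a, a subunit of the inner membrane translocase, compared with 5.54% of all genes. Timm17a had 14.5, 29.0, 18.1, and 24.9 TPM. The mitochondrial chaperones Hspa9 (189, 227, 180, and 198 TPM) and Hspd1 (172, 222, 185, and 207 TPM) were the most abundant genes of this list, and both 6 h libraries were above both controls in each. Mitochondrial ribosomal proteins (71 genes) had medians of 0.15 and 0.08, and cytosolic ribosomal proteins (77 genes) had 0.16 and 0.07. Proteasome subunits (39 genes) had 0.14 and -0.02. Past 2-fold with desflurane was 1 of 39, compared with 4.27% of all genes, Psmd10 (3.49, 5.36, 3.02, and 6.30 TPM), which was higher. Past 2-fold with sevoflurane were 2 of 39, compared with 5.54%. These were the immunoproteasome genes Psmb8 (53.2, 17.1, 45.6, and 32.2 TPM) and Psmb9 (50.2, 16.04, 38.8, and 26.9 TPM), both lower after 6 h of sevoflurane. Leukocyte markers were lowest in the same library, as given above. The median of the respiratory chain genes with sevoflurane was the lowest beside these lists against the own control (0.08), but not against the desflurane control, where it was 0.12 and that of the electron carriers 0.11.

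**Figure D5:**
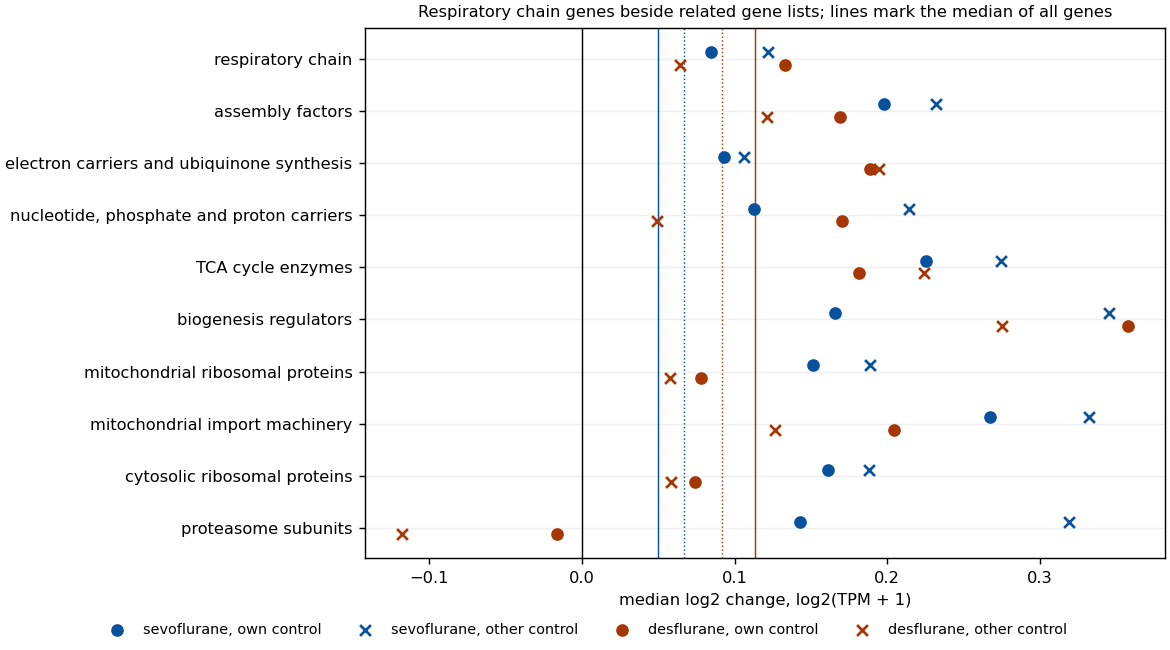
Median log2(TPM + 1) change of the respiratory chain genes and of 9 related lists, with sevoflurane in blue and desflurane in brown, filled circles for the own control and crosses for the other control. Vertical lines mark the median of all 9136 genes in the same comparison (0.05 to 0.11), and the biogenesis regulators with desflurane (0.36) lie farthest right.

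Some levels depended on the gene model. The subunit c genes, and Ndufa10 with Ndufa10l1, are close in sequence, and reads may be split between them. Atp5pb and Ndufa1 each had rows at 2 loci, which were summed. Atp5pb, the stalk subunit b, had 92.2 TPM at chr2:208408890-208420164 and 90.8 TPM at chr2:208566385-208577147 (rn6) in the sevoflurane control, but after 6 h of sevoflurane 1 row spanned both loci with 184 TPM. StringTie also assembled transcripts without using the annotated symbol. At the loci of the 76 members, these assembled rows were within 1% of the annotated level in all libraries for 50 members and within 5% for 60. The largest gaps were those of Ndufa1 after 6 h of desflurane, with 44.4 TPM in the annotated rows and 210 TPM in the assembled row, and of Ndufab1, the mitochondrial acyl carrier protein, in every library. Smaller gaps included Atp5pb after 6 h of sevoflurane (assembled row 87.5 TPM) and Atp5pf after 6 h of desflurane (69.6 TPM annotated, 40.7 TPM assembled). The assembled row of Uqcrq was above the annotated one in every library. The annotated level of Ndufab1 was 24.6, 29.4, 24.4, and 28.35 TPM while the assembled row had 52.6, 125, 41.3, and 118 TPM. The assembled row of Ndufab1 was thus past 2-fold above the own control with both agents, unlike the annotated row. For Uqcr11 the assembled row had 50.8, 32.2, 31.7, and 48.0 TPM, in the same order of libraries as the annotated row except that the sevoflurane control was above desflurane 6 h. The subunits encoded by the mitochondrial genome had no annotated row in the tables and were not analysed here.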

How the data were processed

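Liver RNA of 4 rats was sequenced, 1 library for each of 4 conditions named by the labels. The authors trimmed the reads with sickle, mapped them to rn6 with HISAT2, sorted them with SAMtools, and ran StringTie on the refGene models of that build. In the deposited tables, coverage is the average over a gene, a signal that is not normalized for library size. The deposited FPKM values were normalized by the authors' StringTie run for library size and transcript length. The TPM values deposited by the authors are a signal on a scale set by the assembled rows, so that the annotated rows sum to between 779824 and 813454. The library kit is named differently by the labels and the paper.

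Annotated rows longer than 200 base pairs were used, and TPM values were summed per symbol. The members and lists were chosen with earlier results of these data known. A gene was past a fold limit if the higher state had a TPM value higher than 2 and exceeded the other by more than 2-fold, the rule of the study's methods, or by more than 25%. Medians used log2(TPM + 1), with a pseudocount of 1, over genes above 2 TPM in all libraries. Depth was derived from the ratio of FPKM to coverage, and intervals for single values could not be had because no read counts were used. No test was made. The values of some genes under the rule for named genes are not reported here. Genes named in the text were the 3 most abundant members of each complex, all of complex II, isoform pairs, the extremes for each agent, members past 2-fold, and the most abundant and 2-fold genes of the related lists. The other members past the 25% limit, core or catalytic subunits, and those with 2 loci or a different assembled row were added after their values were seen. Alternatives covered scaling, FPKM values, rows of 1 symbol, the length filter, pseudocounts of 0.1 and 5, TPM limits of 1, 10, and none, the other control, the mean of the controls, abundance, and, chosen after seeing the data, assembled rows. Promoters were matched by symbol in a RefSeq table of GRCr8, with 72 of 84 members found. Python 3.11.15 and numpy 2.4.6 were used. The rule was tested on simulated data.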

Additional observations from a re-analysis of the deposited data

Results flagged for a closer look

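Uqcr11 was the only member past the 25% limit in opposite directions with the 2 agents. Its log2 change against the own control was -0.62 with sevoflurane and 0.74 with desflurane. The difference was not tested, as each condition had 1 library. The controls differed from each other by -0.67 (desflurane control relative to sevoflurane control), and against the other control the changes were 0.06 and 0.07. The mitochondrial chromosome carried assembled rows, which no comparison used. They had 6648 TPM in the sevoflurane control and 6032 TPM in the desflurane control, 6968 and 7176 TPM for the pair of rows after 6 h of sevoflurane, and 6666 TPM after 6 h of desflurane. These rows cover nearly the whole chromosome and do not separate its genes, the 2 rows of sevoflurane overlap, and the values are not a sum over subunits.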

How the results depend on the processing

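No paired analysis was possible because each condition had 1 library and the labels give no replicate numbers. For the same reason leaving out a library gives no value within a group, and the other control served in its place. With median-of-ratios scaling, members higher past the 25% limit numbered 3 with sevoflurane and 1 with desflurane, those lower with desflurane 5, those below both controls 19 with sevoflurane and 30 with desflurane, and those above both controls with desflurane 25. The desflurane median was then 0.0088. The log2 changes of summed TPM were 0.054 for complex V with sevoflurane and -0.043, 0.12, 0.036, 0.0024, and -0.025 for complexes I to V with desflurane. Rescaled to the annotated genes, desflurane had 1 member higher and 2 lower past the limit, 16 below both controls, and 0.042 for complex V. In FPKM values, which are lower than TPM values and were held to the same limit of 2, 0 members were past 2-fold with sevoflurane. In these values 2 were higher past the 25% limit, 3 were below both controls, and complex V had 0.054. Desflurane then had a median of 0.055, 1 member higher and 2 lower past the limit, 5 above and 23 below both controls, and 0.0060 and 0.024 for complexes I and V. With the highest row of a symbol, 2 members were past 2-fold with sevoflurane and complex V had 0.14, since Atp5pb is then read from 1 of its 2 loci in the other libraries. With a TPM limit of 10, or for members with a mean of at least 10 TPM, 0 were past 2-fold with sevoflurane. With no TPM limit, 6 and 5 were past 2-fold with sevoflurane and desflurane, 6 were lower past the 25% limit with sevoflurane, and 10 were higher and 2 lower with desflurane, the added genes being at or under 2 TPM. Against the other control, 0 members were lower past the limit with sevoflurane, and complexes I, II, and IV had 0.12, 0.088, and 0.15. Desflurane then had a median of 0.064, 3 members higher and 2 lower, and 0.025 and 0.070 for complexes IV and V. Uqcr11 turned from -0.62 to 0.06 with sevoflurane. Against the mean of the controls, 1 member was lower with sevoflurane and 1 with desflurane. With assembled rows, 3 and 2 members were past 2-fold with sevoflurane and desflurane, and 5 and 1 were lower past the 25% limit. The cause was not tested except where stated. Of the values that answer a comparison, 194 stayed close to the main value and 52 moved. Of those of single members, 36 stayed past the 25% limit in the same direction and 33 kept the direction but no longer passed it. The 1 that reversed was Uqcr11 with sevoflurane against the other control.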
